A study of Homo sapiens with 6 samples.

Results

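The extracellular matrix genes described here are 45 genes named for this purpose, and all 45 were found by symbol among the 37923 genes of the deposited table. They are 8 laminin chains, 12 collagen chains, 5 lysyl oxidases that cross-link collagen and elastin, 7 proteoglycans, 9 other matrix glycoproteins, and a last class of 4 with the FREM basement membrane proteins and THSD7A. The study sequenced RNA of 3 ENZ and 3 Control libraries, all from cells labelled RKO, which is a line from a human colon cancer. The series design describes ENZ as cells given A3, a compound that degrades the histone demethylase LSD1, with RNA taken after 48 h. No source used here gives the dose, the treatment of the Control cells or the meaning of the name ENZ. The question was which matrix genes these cells express, and which differ between the ENZ and Control libraries.

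The extracellular matrix is the protein and sugar scaffold around cells. Epithelial cells lay down a sheet of it, the basement membrane, in which laminins (each built from an alpha, a beta and a gamma chain) and collagen IV form networks that nidogens and the heparan sulfate proteoglycans perlecan and agrin connect. The looser matrix of connective tissue is rich in fibrillar collagens, fibronectin, fibrillins and small leucine-rich proteoglycans such as lumican and decorin, and fibroblasts are its main source in the body. Lysyl oxidases stiffen it by oxidising lysines of collagen and elastin.

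The libraries held 26756840 to 30025543 counts in ENZ and 26691289 to 28207612 in Control. Levels are given as the deposited FPKM, which scales counts to gene length and library total, with replicates 1, 2 and 3 in that order. For nearly all members where it could be checked, that length was all annotated exon bases of the gene. FPKM compared between genes therefore depends on the annotation. A log2 fold change is ENZ over Control, so that a positive value is higher in ENZ, and comes from a test of the counts. A marker check went against the label in all 6 libraries. Of 10 colorectal epithelial markers present only 2 reached a mean of 1 CPM (counts scaled to the library total, here per 1000000), while all 12 prostate luminal markers did, among them FOLH1 (857 ± 5.71 CPM in ENZ and 626 ± 3.69 CPM in Control, SD, n = 3 each). Of the 12 prostate markers 5 were called higher and 5 lower in ENZ, where 20.5% and 19.3% of all genes tested were. The colorectal marker KRT20 had 1 count in all libraries together. Only 2 of 10 fibroblast markers reached that level, and the list summed to 5.92 to 8.99 CPM in ENZ and 7.48 to 8.98 CPM in Control, while FAP had no count and THY1 had 1. The endothelial list of 6 summed to 1.53 to 1.79 CPM in ENZ and 1.46 to 1.73 CPM in Control. KDR, a marker on this list, had no count. The identity of the cells beyond the label RKO was not tested. In bulk RNA fewer cells that express a gene and less RNA per cell cannot be told apart.

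Matrix genes spanned a wide range of levels. Of the 45, 3 had a mean of at least 10 FPKM, 19 of at least 1 FPKM, 14 lay between 0.1 and 1 FPKM and 12 were lower still. The highest was LAMC1, the laminin gamma 1 chain, with a mean of 49.7 FPKM over the 6 libraries, followed by the proteoglycan lumican (LUM, 18.1 FPKM), LAMB2 (17.3 FPKM) and agrin (AGRN, 8.29 FPKM). LAMC1 alone made 37.8% of the summed FPKM of the 45 genes in ENZ and 35.0% in Control. At the other end COL1A2 and LAMA1 each had a single count in all 6 libraries together, and COL4A1 had 5.

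**Figure D1:**
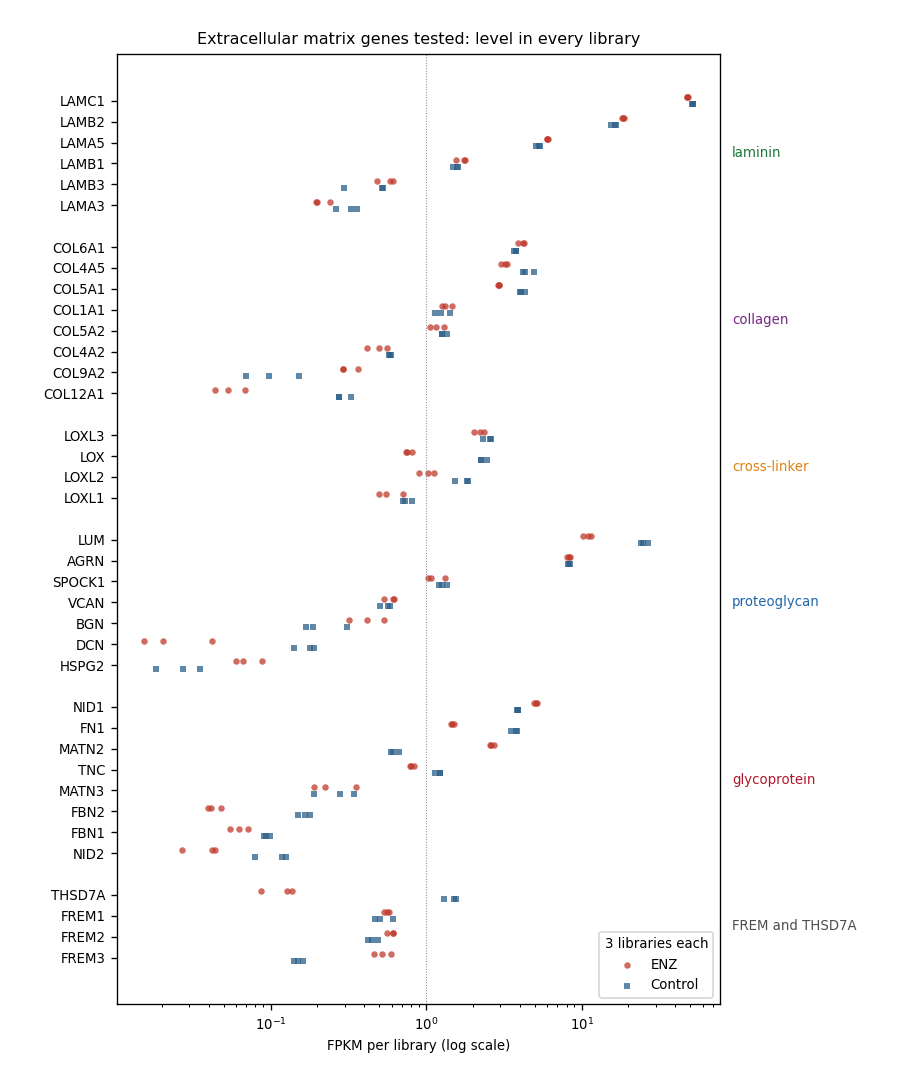
FPKM of the 37 tested matrix genes in each library (horizontal axis, log scale), ENZ as circles above Control as squares, grouped by class and ordered by mean level within a class. LAMC1, LUM and LAMB2 lie above 10 FPKM, and the ENZ and Control points stand well apart for genes such as THSD7A, MATN2, LUM and FN1.

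Of the 45 genes, 9 rose in ENZ, 14 fell, 14 were tested and not called, and 8 were too low to be tested (edgeR's quasi-likelihood test, adjusted p under 0.05 over all 18581 genes tested). Among all genes tested 20.5% rose and 19.3% fell, 39.8% in all, and these shares are the background for the counts of matrix genes. Of the matrix genes, 4 rose and 8 fell past 1 on the log2 scale, where the background was 0.737% for rises and 2.24% for falls. Several members, among them THSD7A, MATN2, FREM3, DCN, FN1 and LOX, were already known to change in these libraries when the list was drawn up, so these counts describe the list and are no test of it. The median log2 fold change was −0.12 over the 37 tested members and −0.01 over all genes tested. All 3 ENZ libraries lay above all 3 Control libraries in CPM for 10 of the 37 (background 21.7%) and below them for 17 (background 27.6%). Of the 37, COL9A2 and HSPG2 reached the level of the expression filter (0.361 CPM) in all 3 ENZ libraries but not in all 3 Control libraries. DCN and NID2 reached it in all 3 Control libraries but not in all 3 ENZ libraries. These 4 thus passed the filter at least in part through the group where they are higher. Some libraries of the lower group reached the level too, except for NID2.

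**Figure D2:**
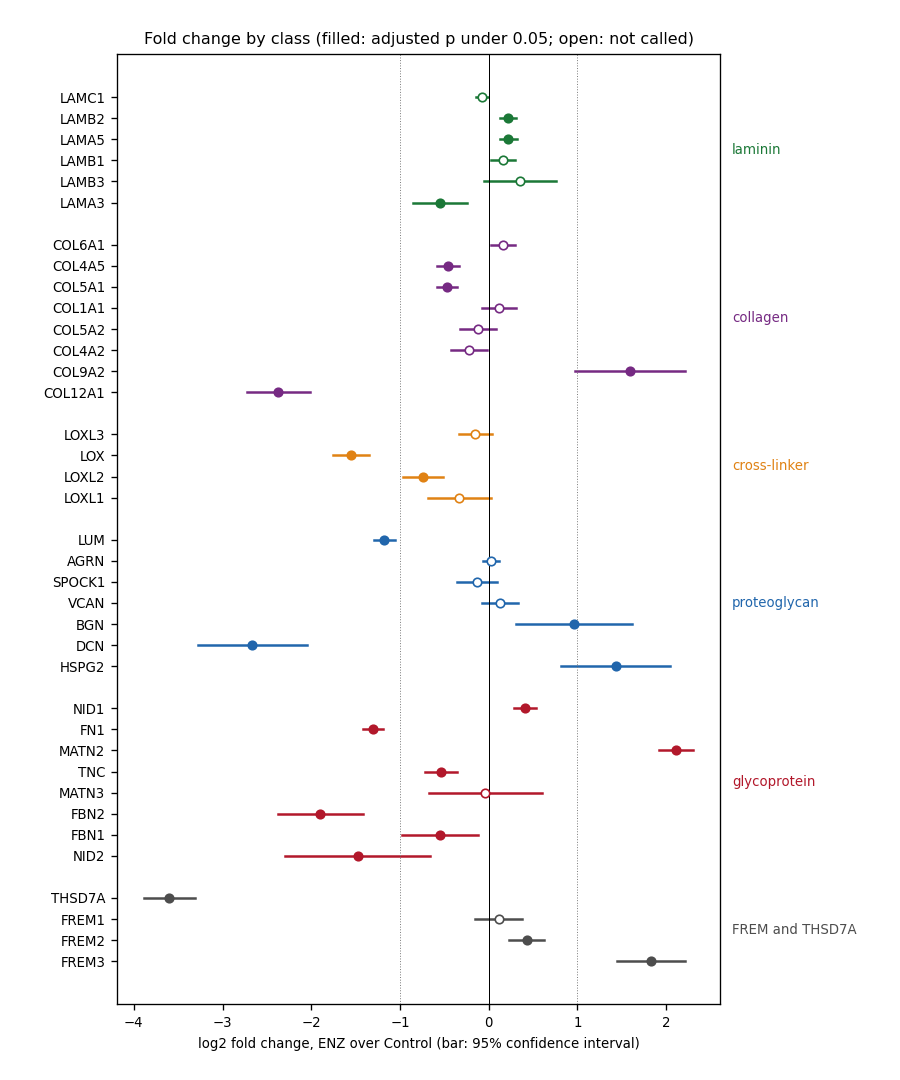
Log2 fold change of ENZ over Control for each tested matrix gene with its 95% confidence interval, by class, where filled points passed an adjusted p of 0.05 and open points did not. Falls run down to −3.60 (THSD7A) and rises up to 2.11 (MATN2), while laminins stay between −0.55 and 0.35.

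**Figure D3:**
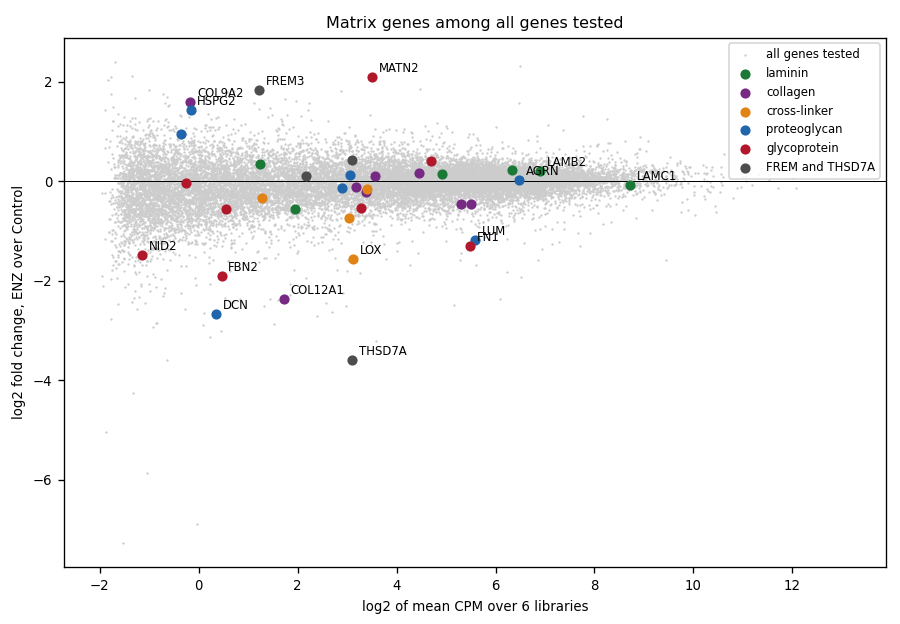
Log2 fold change of ENZ over Control against mean level (log2 of the mean CPM over 6 libraries) for all 18581 genes tested in grey and the 37 matrix genes in the colour of their class. THSD7A and DCN are the lowest of the coloured points and MATN2 and FREM3 the highest, while LAMC1, the most abundant, lies close to 0.

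Laminins had the highest summed level of the classes, and their log2 fold changes lay between −0.55 and 0.35. LAMC1, shared by most laminins, had 47.4, 47.9 and 48.2 FPKM in the ENZ libraries, against 51.7, 51.1 and 51.7 FPKM in the Control libraries (log2 fold change −0.07, 95% interval −0.14 to −0.00, edgeR adjusted p = 0.0841). All ENZ libraries were below all Control libraries, but the difference was not called. It was called with library totals alone (−0.11, edgeR adjusted p = 0.00693), with offsets for GC content and length (−0.09, edgeR adjusted p = 0.0133; with the replicate block added, 0.0118) and on the log2 FPKM scale with each pseudocount and filter (−0.11, limma adjusted p from 0.0130 to 0.0311). LAMB2, the beta 2 chain, had 18.7, 18.2 and 18.5 FPKM in the ENZ libraries, against 16.5, 16.7 and 15.6 FPKM in the Control libraries, a 1.16-fold rise (log2 fold change 0.22 ± 0.04 SE, edgeR adjusted p = 2.36e-04). LAMA5, the alpha 5 chain that pairs with these in the laminins of mature epithelial basement membranes, had 5.95, 6.06 and 6.01 FPKM in the ENZ libraries, against 5.31, 5.43 and 5.10 FPKM in the Control libraries (log2 fold change 0.22 ± 0.04 SE, edgeR adjusted p = 4.05e-04). Both were higher in every ENZ library than in any Control library. With offsets for GC content and transcript length the LAMB2 rise was 0.09 (adjusted p = 0.0432) and the LAMA5 call was lost (0.03, adjusted p = 0.482).

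The other laminin chains stood at lower levels. LAMB1, the beta 1 chain, had 1.77, 1.56 and 1.76 FPKM in the ENZ libraries, against 1.48, 1.61 and 1.59 FPKM in the Control libraries (log2 fold change 0.16, 95% interval 0.02 to 0.29, edgeR adjusted p = 0.0548), with the lowest ENZ library inside the Control range, and it was called without ENZ replicate 2 (0.22, adjusted p = 0.0227). On the FPKM scale LAMB2 exceeded LAMB1, its alternative, 10.5- to 11.7-fold in ENZ and 9.81- to 11.1-fold in Control. This ratio depends on the lengths used, 6865 bases for LAMB2 and 18592 for LAMB1. Over the 6 libraries LAMB2 had 20078 counts and LAMB1 5103. LAMA3 and LAMB3 encode chains of the laminin of hemidesmosomes. LAMA3 fell, with 0.241, 0.199 and 0.197 FPKM in the ENZ libraries, against 0.362, 0.264 and 0.331 FPKM in the Control libraries (log2 fold change −0.55 ± 0.15 SE, edgeR adjusted p = 0.00438), and the groups did not overlap. LAMB3 had 0.609, 0.483 and 0.586 FPKM in the ENZ libraries, against 0.526, 0.523 and 0.298 FPKM in the Control libraries (log2 fold change 0.35, 95% interval −0.06 to 0.76, edgeR adjusted p = 0.163), and its groups overlapped. The FPKM of LAMA5 was 24.7 to 30.5 times that of LAMA3 in ENZ libraries and 14.7 to 20.5 times in Control libraries. LAMA4, with 2, 0 and 3 counts in the ENZ libraries, against 4, 4 and 4 counts in the Control libraries, and LAMA1, with 1 count in ENZ replicate 3 and none elsewhere, were not tested.

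Collagens were expressed as a partial set. Of 12 chains 1 rose, 3 fell, 4 were not called and 4 were not tested, and several chains were found without the partner with which they normally assemble. COL1A1, which normally joins COL1A2 in type I collagen, had 1.26, 1.46 and 1.32 FPKM in the ENZ libraries, against 1.42, 1.25 and 1.14 FPKM in the Control libraries (log2 fold change 0.11, 95% interval −0.08 to 0.31, edgeR adjusted p = 0.350), with groups that overlapped. COL1A2 had 1 count against 1984 for COL1A1 over the 6 libraries. COL6A1 of the beaded filaments of type VI collagen had 4.21, 3.88 and 4.25 FPKM in the ENZ libraries, against 3.80, 3.70 and 3.80 FPKM in the Control libraries (log2 fold change 0.16, 95% interval 0.02 to 0.30, edgeR adjusted p = 0.0584). It was higher in every ENZ library, but the difference was not called, except without ENZ replicate 2 (0.20, adjusted p = 0.0476). COL6A2, its partner, lies 93061 bases away on chromosome 21 and had 2, 12 and 10 counts in the ENZ libraries, against 3, 4 and 4 counts in the Control libraries, too few to be tested.

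The basement membrane chains COL4A1 and COL4A2 lie head to head on chromosome 13 and normally form 1 molecule. COL4A2 had 0.496, 0.559 and 0.417 FPKM in the ENZ libraries, against 0.587, 0.592 and 0.575 FPKM in the Control libraries, below Control in every ENZ library but not called (log2 fold change −0.22, 95% interval −0.43 to −0.02, edgeR adjusted p = 0.0742). It was called without ENZ replicate 2 (−0.32, adjusted p = 0.0229), with library totals alone (−0.26, adjusted p = 0.0462) and with GC and length offsets (−0.37, adjusted p = 0.00143). COL4A1 had 2 counts in ENZ and 3 in Control, so that of this pair 1736 counts fell on COL4A2 and 5 on COL4A1. The genes start 126 bases apart (COL4A1 at 110307157 on the minus strand and COL4A2 at 110307284 on the plus strand). The stretch between these starts is printed because the genes point outwards from it and had such unequal counts (RefSeq, GRCh38.p14, chr13:110307158-110307283, plus strand). A CCAAT box (CCAAT) and a GC box (GGGCGG) are in capitals.
COL4A1-COL4A2: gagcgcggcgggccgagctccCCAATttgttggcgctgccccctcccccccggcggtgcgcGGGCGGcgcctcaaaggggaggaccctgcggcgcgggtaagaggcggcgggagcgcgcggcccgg
It was 80.2% G and C with 20 CpG pairs. A GC box on either strand was in 42.6% and a CCAAT box in 32.0% of the 35116 RefSeq promoter windows of 250 bases. These starts are those of RefSeq. The GENCODE 44 model of COL4A2 begins at 110305812, on the far side of this stretch, and counts per gene do not tell which start was used.

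Of the remaining collagens, COL4A5, an X-linked basement membrane chain, fell 1.38-fold, with 3.30, 3.21 and 3.01 FPKM in the ENZ libraries, against 4.93, 4.31 and 4.19 FPKM in the Control libraries (log2 fold change −0.46 ± 0.06 SE, edgeR adjusted p = 2.66e-06). COL5A1 of type V collagen, which starts fibrils, also fell, with 2.94, 2.89 and 2.94 FPKM in the ENZ libraries, against 3.99, 4.08 and 4.31 FPKM in the Control libraries (log2 fold change −0.46 ± 0.05 SE, edgeR adjusted p = 5.82e-07). Both were lower in every ENZ library. Its partner COL5A2 had 1.06, 1.30 and 1.15 FPKM in the ENZ libraries, against 1.37, 1.26 and 1.26 FPKM in the Control libraries (log2 fold change −0.12, 95% interval −0.32 to 0.09, edgeR adjusted p = 0.367), with groups that overlapped. COL12A1, a fibril-associated collagen, fell most, 5.17-fold, with 0.0530, 0.0436 and 0.0685 FPKM in the ENZ libraries, against 0.276, 0.277 and 0.330 FPKM in the Control libraries (log2 fold change −2.37 ± 0.17 SE, edgeR adjusted p = 3.62e-10). COL9A2, a chain of cartilage type IX collagen, rose from a low level, with 37, 33 and 45 counts in the ENZ libraries, against 18, 8 and 11 counts in the Control libraries (log2 fold change 1.59 ± 0.30 SE, edgeR adjusted p = 2.00e-04). The highest Control library stayed below the lowest ENZ library for COL9A2, and the reverse held for COL12A1. COL18A1, the basement membrane collagen that yields endostatin, had 9, 9 and 14 counts in the ENZ libraries, against 5, 17 and 7 counts in the Control libraries, shares 18.5% of its exon bases with SLC19A1 on the other strand, and was not tested.

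Of the 5 cross-linking enzymes 4 were tested, of which none rose, 2 fell and 2 were not called. Among all genes tested 20.5% rose and 19.3% fell. LOX, the founding lysyl oxidase (chromosome 5 from 122063195 to 122078413, GRCh38), fell 2.93-fold, with 0.815, 0.755 and 0.748 FPKM in the ENZ libraries, against 2.45, 2.27 and 2.25 FPKM in the Control libraries (log2 fold change −1.55 ± 0.10 SE, edgeR adjusted p = 2.89e-11). LOXL2, which acts on collagen IV, had 0.901, 1.03 and 1.12 FPKM in the ENZ libraries, against 1.54, 1.85 and 1.84 FPKM in the Control libraries (log2 fold change −0.74 ± 0.11 SE, edgeR adjusted p = 1.14e-05). For both genes all ENZ libraries lay below all Control libraries. LOXL3 had 2.03, 2.37 and 2.21 FPKM in the ENZ libraries, against 2.60, 2.57 and 2.31 FPKM in the Control libraries (log2 fold change −0.15, 95% interval −0.34 to 0.04, edgeR adjusted p = 0.201), the highest level of the family in ENZ, with groups that overlapped. LOXL1, known for its part in elastic fibres, had 0.494, 0.709 and 0.552 FPKM in the ENZ libraries, against 0.712, 0.729 and 0.814 FPKM in the Control libraries (log2 fold change −0.33, 95% interval −0.69 to 0.03, edgeR adjusted p = 0.133). Its ENZ libraries were all below the Control libraries, by a narrow margin in replicate 2. With GC and length offsets both LOXL3 (−0.22, adjusted p = 0.0345) and LOXL1 (−0.52, adjusted p = 0.0146) were called. HTRA2, on the other strand, shares 20.7% of the LOXL3 exon bases. LOXL4 had 3, 4 and 8 counts in the ENZ libraries, against 4, 9 and 9 counts in the Control libraries, and was not tested. Together the 5 genes summed to 4.27, 4.90 and 4.71 FPKM in the ENZ libraries, against 7.35, 7.51 and 7.31 FPKM in the Control libraries.

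All 7 proteoglycans were tested, of which 2 rose, 2 fell and 3 were not called. The 2 small leucine-rich members that lie side by side on chromosome 12, LUM and DCN, 28989 bases apart on the same strand, both fell. LUM encodes lumican, which binds collagen fibrils, and had 11.5, 11.0 and 10.3 FPKM in the ENZ libraries, against 26.9, 24.7 and 24.1 FPKM in the Control libraries, a 2.26-fold fall (log2 fold change −1.17 ± 0.06 SE, edgeR adjusted p = 2.87e-13). DCN encodes decorin and had 6, 7 and 16 counts in the ENZ libraries, against 52, 67 and 62 counts in the Control libraries (log2 fold change −2.66 ± 0.30 SE, edgeR adjusted p = 3.31e-07). In both genes the groups were far apart, although LUM stood at 25.2 FPKM and DCN at 0.171 FPKM in Control. Part of this gap between the genes comes from the lengths used, 2671 bases for LUM and 12941 for DCN. The Control libraries together held 5538 counts of LUM and 181 of DCN. BGN encodes biglycan, the third leucine-rich member, and went the other way, with 23, 27 and 38 counts in the ENZ libraries, against 21, 11 and 12 counts in the Control libraries (log2 fold change 0.96 ± 0.32 SE, edgeR adjusted p = 0.0186). Its highest Control library came close to its lowest ENZ library, and the call was lost without ENZ replicate 3 (adjusted p = 0.111), Control replicate 2 (adjusted p = 0.0791) or Control replicate 3 (adjusted p = 0.0749), and with DESeq2 (adjusted p = 0.0571).

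Among the basement membrane proteoglycans, AGRN, which encodes agrin, had 8.10, 8.26 and 8.40 FPKM in the ENZ libraries, against 8.43, 8.20 and 8.32 FPKM in the Control libraries (log2 fold change 0.02, 95% interval −0.06 to 0.11, edgeR adjusted p = 0.692). These groups overlapped, but with GC and length offsets AGRN was called lower (−0.19, adjusted p = 4.72e-05), and its sign also turned with library totals alone (−0.01). HSPG2, which encodes perlecan, rose 2.70-fold from a very low level, with 36, 43 and 32 counts in the ENZ libraries, against 14, 9 and 17 counts in the Control libraries (log2 fold change 1.43 ± 0.30 SE, edgeR adjusted p = 5.55e-04), and its groups did not overlap. VCAN, which encodes versican, had 0.619, 0.611 and 0.535 FPKM in the ENZ libraries, against 0.565, 0.506 and 0.587 FPKM in the Control libraries (log2 fold change 0.12, 95% interval −0.08 to 0.33, edgeR adjusted p = 0.335), and was called with GC and length offsets alone (0.23, adjusted p = 0.0398). SPOCK1, which encodes testican 1, had 1.07, 1.33 and 1.03 FPKM in the ENZ libraries, against 1.36, 1.26 and 1.20 FPKM in the Control libraries (log2 fold change −0.13, 95% interval −0.35 to 0.10, edgeR adjusted p = 0.375). Both had overlapping groups.

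Of the 9 other glycoproteins 5 fell, 2 rose, 1 was not called and 1 was not tested. FN1, which encodes fibronectin, the adhesive protein that integrins bind (chromosome 2 from 215360440 to 215436073, GRCh38), fell 2.46-fold, with 1.52, 1.44 and 1.46 FPKM in the ENZ libraries, against 3.53, 3.82 and 3.81 FPKM in the Control libraries (log2 fold change −1.30 ± 0.05 SE, edgeR adjusted p = 2.72e-14). TNC, which encodes the anti-adhesive tenascin C, had 0.791, 0.841 and 0.801 FPKM in the ENZ libraries, against 1.24, 1.23 and 1.15 FPKM in the Control libraries (log2 fold change −0.54 ± 0.09 SE, edgeR adjusted p = 4.78e-05). No ENZ library reached a Control library in either gene. The fibrillins, which form the microfibrils of elastic tissue, were low and fell, FBN2 with 19, 14 and 16 counts in the ENZ libraries, against 56, 64 and 59 counts in the Control libraries (log2 fold change −1.90 ± 0.23 SE, edgeR adjusted p = 1.01e-06). FBN1 had 40, 31 and 30 counts in the ENZ libraries, against 52, 46 and 46 counts in the Control libraries (log2 fold change −0.55 ± 0.21 SE, edgeR adjusted p = 0.0388), and its call was lost in 5 of the 6 fits that left out a library (adjusted p up to 0.134) and with DESeq2 (adjusted p = 0.130).

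The 2 nidogens, which link laminin to collagen IV, moved in opposite directions. NID1 had 5.08, 4.94 and 5.14 FPKM in the ENZ libraries, against 3.91, 3.91 and 3.86 FPKM in the Control libraries, a 1.33-fold rise (log2 fold change 0.41 ± 0.06 SE, edgeR adjusted p = 1.20e-05). NID2 had 5, 7 and 8 counts in the ENZ libraries, against 14, 20 and 21 counts in the Control libraries (log2 fold change −1.48 ± 0.39 SE, edgeR adjusted p = 0.00467). The groups did not overlap in either, and 30.7% of the NID2 exon bases are shared with a gene on the other strand, RTRAF. MATN2, which encodes matrilin 2, an adaptor protein of the matrix (chromosome 8 from 97868840 to 98036724, GRCh38), rose most of all members, 4.31-fold, with 2.60, 2.74 and 2.59 FPKM in the ENZ libraries, against 0.674, 0.610 and 0.594 FPKM in the Control libraries (log2 fold change 2.11 ± 0.09 SE, edgeR adjusted p = 4.31e-14). MATN3, the cartilage matrilin, had 18, 19 and 33 counts in the ENZ libraries, against 17, 24 and 29 counts in the Control libraries (log2 fold change −0.04, 95% interval −0.68 to 0.60, edgeR adjusted p = 0.938), and its sign turned in several fits. SPARC, which encodes the collagen-binding osteonectin, had 2, 1 and 9 counts in the ENZ libraries, against 1, 8 and 1 counts in the Control libraries, and was not tested.

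The FREM genes and THSD7A held the largest fall and the second-largest rise of the list. THSD7A encodes a membrane protein with thrombospondin repeats (chromosome 7 from 11370365 to 11832198, GRCh38) and had 0.128, 0.137 and 0.0873 FPKM in the ENZ libraries, against 1.56, 1.30 and 1.51 FPKM in the Control libraries, a 12.1-fold fall (log2 fold change −3.60 ± 0.14 SE, edgeR adjusted p = 3.84e-15). FREM proteins stabilise the basement membrane under developing epithelium together with FRAS1. FREM3 (chromosome 4 from 143577302 to 143700675, GRCh38) rose 3.55-fold, with 0.465, 0.593 and 0.520 FPKM in the ENZ libraries, against 0.150, 0.161 and 0.142 FPKM in the Control libraries (log2 fold change 1.83 ± 0.18 SE, edgeR adjusted p = 6.44e-08). FREM2 rose 1.34-fold, with 0.616, 0.615 and 0.558 FPKM in the ENZ libraries, against 0.425, 0.450 and 0.488 FPKM in the Control libraries (log2 fold change 0.43 ± 0.10 SE, edgeR adjusted p = 0.00113). In these genes every ENZ library stood on the same side of every Control library, whereas FREM1 had 0.539, 0.578 and 0.559 FPKM in the ENZ libraries, against 0.613, 0.467 and 0.507 FPKM in the Control libraries with groups that overlapped (log2 fold change 0.11, 95% interval −0.16 to 0.38, edgeR adjusted p = 0.524).

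**Figure D4:**
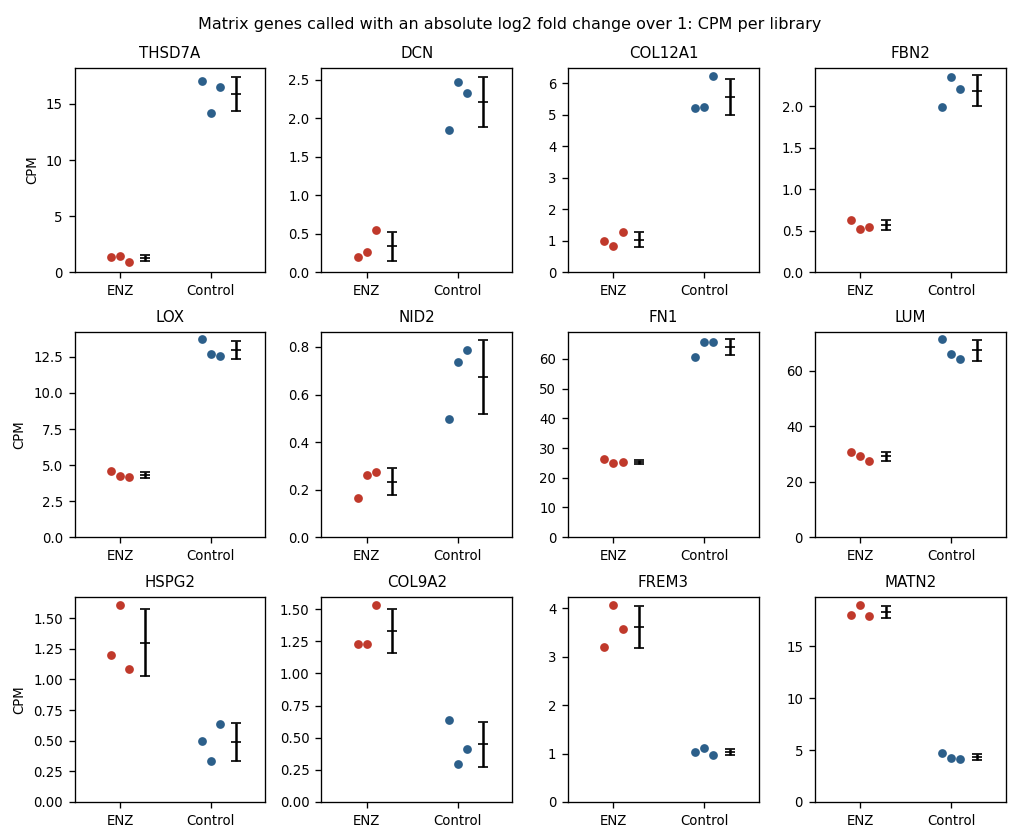
CPM per library (points) with mean and SD (bar beside the points) for the 12 matrix genes called with an absolute log2 fold change over 1, ENZ left of Control, each panel with its own axis from 0. In every panel the ENZ points lie wholly below (8 genes from THSD7A to LUM) or wholly above (HSPG2, COL9A2, FREM3 and MATN2) the Control points.

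The 250 bases upstream of the start are printed for the largest fall (THSD7A), for an abundant fall (FN1) and for the largest rise with an entry in the promoter table (FREM3), to set the promoters of genes with opposite changes side by side (RefSeq, GRCh38.p14). Capitals mark the GC and CCAAT boxes spelled out above, a TATA box (TATAAA), a cyclic AMP response element (CRE, TGACGTCA) or an AP-1 site (TGACTCA) on either strand. THSD7A is at chr7:11832199-11832448, minus strand, FN1 at chr2:215436069-215436318, minus strand, and FREM3 at chr4:143700676-143700925, minus strand.
THSD7A: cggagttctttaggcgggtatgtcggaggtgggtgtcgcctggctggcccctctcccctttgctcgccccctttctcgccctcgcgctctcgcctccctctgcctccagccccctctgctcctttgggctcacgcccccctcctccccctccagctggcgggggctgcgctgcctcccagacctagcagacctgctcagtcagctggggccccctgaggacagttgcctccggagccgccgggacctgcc
FN1: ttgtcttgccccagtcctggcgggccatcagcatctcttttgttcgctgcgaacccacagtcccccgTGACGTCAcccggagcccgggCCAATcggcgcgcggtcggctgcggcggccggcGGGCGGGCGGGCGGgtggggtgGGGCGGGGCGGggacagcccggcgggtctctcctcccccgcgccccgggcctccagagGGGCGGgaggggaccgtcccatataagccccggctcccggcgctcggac
FREM3: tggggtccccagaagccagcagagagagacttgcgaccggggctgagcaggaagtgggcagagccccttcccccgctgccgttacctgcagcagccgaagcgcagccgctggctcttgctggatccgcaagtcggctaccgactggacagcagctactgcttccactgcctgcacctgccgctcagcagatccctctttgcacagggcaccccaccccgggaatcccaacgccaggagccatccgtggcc
The FN1 window held 6 GC boxes, overlapping ones included, 1 CCAAT box and 1 CRE, and neither the THSD7A nor the FREM3 window held any of the 5 motifs. A CRE was in 1.65% of the 35116 promoter windows, a TATA box in 10.7% and an AP-1 site in 4.20%. THSD7A (15 CpG pairs) and FREM3 (14) had similar numbers of CpG pairs, and FN1 had 32. The promoter table held 34 of the 45 members, and did not hold LUM, DCN, MATN2, COL1A1, COL1A2, COL5A2, COL6A1, LAMA1, LOXL2, AGRN and SPOCK1.

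The classes are set side by side here as a description, with no test between them; among all genes tested 20.5% rose and 19.3% fell. Laminins had 2 rises and 1 fall among 6 tested and a median log2 fold change of 0.19, and their summed FPKM was 74.8 ± 0.464 in ENZ and 75.4 ± 0.678 in Control (SD, n = 3). LAMC1 made 64.0% of the laminin sum in ENZ and 68.3% in Control. Collagens had 1 rise and 3 falls among 8 tested (median −0.17), with a summed FPKM of 13.7 ± 0.0613 in ENZ and 16.0 ± 0.501 in Control. Cross-linkers had no rise and 2 falls among 4 tested (median −0.54; 4.63 ± 0.326 FPKM in ENZ and 7.39 ± 0.109 in Control). Proteoglycans had 2 rises and 2 falls among 7 tested (median 0.02), with a sum of 21.4 ± 0.466 FPKM in ENZ and 35.8 ± 1.65 in Control, and LUM made 51.0% of it in ENZ and 70.5% in Control. Glycoproteins had 2 rises and 5 falls among 8 tested (median −0.54), and their sum was 10.4 ± 0.125 FPKM in ENZ and 10.1 ± 0.212 in Control. The FREM genes and THSD7A had 2 rises and 1 fall among 4 tested (median 0.27), with 1.80 ± 0.109 FPKM in ENZ and 2.59 ± 0.192 in Control. THSD7A alone made 6.53% of this sum in ENZ and 56.2% in Control. Over all 45 genes the sum was 127 ± 0.347 FPKM in ENZ and 147 ± 2.56 in Control, of which LUM had 10.9 and 25.2 FPKM.

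Genes that make, modify, bind or cut the matrix were counted on lists chosen with earlier results of these libraries known, so that the counts describe the lists. The background is again 20.5% rises and 19.3% falls of genes tested. Of 27 genes of collagen synthesis and processing 25 were tested, of which 5 rose and 11 fell. Among those of at least 1 CPM the largest falls were in PCOLCE2, an enhancer of procollagen cleavage (−0.62), the lysyl hydroxylase PLOD2 (−0.58; 32.5 ± 2.91 CPM in ENZ and 49.6 ± 2.40 CPM in Control) and the procollagen protease ADAMTS3 (−0.57). PCOLCE, the relative of PCOLCE2, rose by 0.74, and the prolyl 3-hydroxylase family genes P3H1 and P3H3 by 0.27 and 0.25. Of 24 enzymes that build glycosaminoglycan chains on proteoglycans 22 were tested, and 3 rose and none fell, B3GALT6 (0.35), CHPF2 (0.30) and EXTL3 (0.23).

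Of 28 matrix receptors 22 were tested, of which 6 rose and 7 fell. Among those of at least 1 CPM, BCAM, a receptor for the laminin alpha 5 chain, rose by 0.97 on the log2 scale (39.0 ± 1.78 CPM in ENZ and 20.4 ± 2.05 CPM in Control), the collagen receptor kinase DDR1 by 0.44 and the syndecan SDC1 by 0.44. The integrin subunits ITGB8, ITGA4 and ITGA1, of which the last is part of a collagen receptor, had log2 fold changes of −1.29, −0.95 and −0.74. Of 27 proteases and inhibitors 14 were tested, of which 6 rose and none fell, and those of at least 1 CPM with the largest rise were the metalloprotease inhibitor TIMP2 (1.01; 1.37 ± 0.145 CPM in ENZ and 0.693 ± 0.115 CPM in Control), MMP17 (0.80) and ADAMTS1 (0.48).

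Of 17 elastic fibre and microfibril genes 9 were tested, of which 4 rose and 1 fell, with EMILIN1 up by 0.90, and LTBP2 and LTBP3, which belong to the family of latent TGF-beta binding proteins, up by 0.73 and 0.31. Of 15 further glycoproteins 8 were tested and 2 rose, the calcium-binding SMOC1 by 0.82 and the thrombospondin THBS3 by 0.37, and none fell. Of 16 further proteoglycans and link proteins 6 were tested, and SPOCK2 rose (0.52) and HAPLN3 fell (−0.41). FRAS1, the partner of the FREM proteins, was the 1 called gene among 4 tested of 6 other laminin and Fraser complex genes, at 0.13 (edgeR adjusted p = 0.0259).

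Members that fell had a lower GC content than those that rose, with medians of 47.6% and 60.3% for the longest transcript, against 48.0% over all genes tested. Offsets per library for GC content and length shifted each member by −0.21 (AGRN) to 0.27 (LUM) on the log2 scale. With them 9 members rose and 19 fell, where 4894 of all 18538 genes tested rose and 3116 fell. The large changes kept their calls, with THSD7A at −3.49, DCN at −2.48, LUM at −0.90, FN1 at −1.19 and MATN2 at 2.11 under the offsets. The part of GC content in the smaller changes was not tested further.

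**Figure D5:**
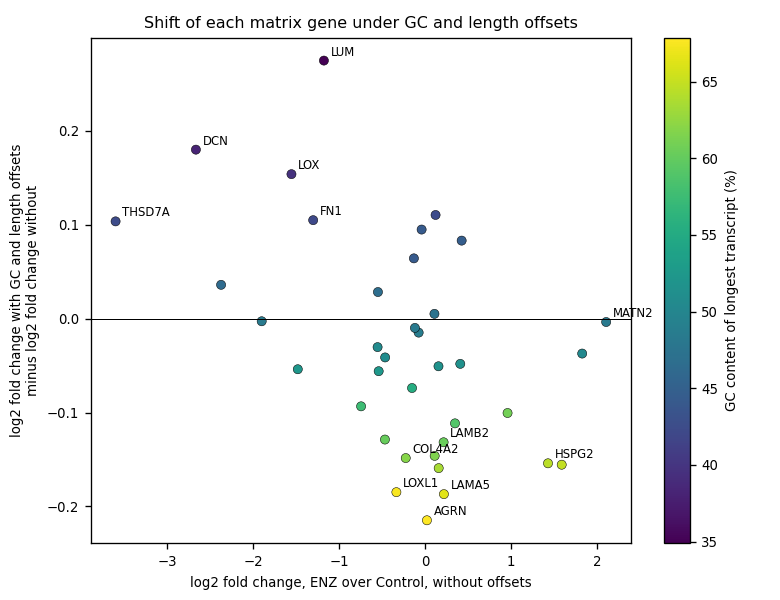
Shift of the log2 fold change under GC and length offsets (vertical axis) against the log2 fold change without them (horizontal axis) for the 37 tested matrix genes, coloured by the GC content of the longest transcript in percent. GC-poor LUM, DCN and LOX shift upwards by 0.15 to 0.27 and GC-rich AGRN, LAMA5 and LOXL1 downwards by 0.18 to 0.21.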

How the data were processed

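For each of the 6 libraries the deposited values were raw counts and FPKM per gene. Per the labels' protocols, poly(A) RNA was made into libraries with a kit that keeps no record of strand. HISAT2 2.0.5 and HTSeq 0.6.1 were named, with DESeq2 and GRCh38, per the submitters' processing notes. No source used here gives the annotation release or strand setting. The deposited FPKM equalled count over 1 length per gene and library total, to within 6.34e-06 percent for values of at least 10 counts.

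Group and replicate came from the titles. Counts were compared with edgeR 4.0.16 (R 4.3.3; TMM, default expression filter, robust quasi-likelihood F test, Benjamini-Hochberg over 18581 genes; called at adjusted p under 0.05). The SE is the absolute log2 fold change over the square root of F. The series design calls the libraries biological replicates without saying what separated them, so p-values reflect the spread of these libraries, which may be technical. Positions, GC content and overlaps came from GENCODE 44 (37817 of 37923 identifiers matched). A count of 0 allows up to 3 counts, 0.0999 to 0.112 CPM, for counting error only. Genes without a symbol (9849) held 0.875% of counts.

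Members and lists were chosen with earlier results of these data known. Every member is named. From each list of related genes, up to 3 rises and 3 falls with the largest change and a mean of at least 1 CPM are named. Alternatives were DESeq2 1.42.0, other scalings and filters, a replicate block, GC and length offsets (splines, 4 degrees of freedom), limma 3.58.1 on log2 FPKM, and each library left out.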

Additional observations from a re-analysis of the deposited data

How the results depend on the processing

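Of the 23 members called, 16 kept their call and direction under each of the 17 alternatives that tested them, 7 lost the call in at least 1 and none reversed. BGN lost it in 5 and FBN1 in 9 of 15, and LAMA5 lost it with GC and length offsets. LAMA3, HSPG2, NID2 and FREM2 lost it on unfiltered log2(FPKM + 1) values, which understate the change of low genes. Of the 14 members not called, 7 gained a call with the sign kept in at least 1 alternative, and 4 changed sign in at least 1. AGRN, which is not among the 7, changed sign and was called lower with GC and length offsets (edgeR adjusted p = 4.72e-05). The same held with the replicate block added (edgeR adjusted p = 1.07e-04). With library totals alone AGRN was −0.011. On the FPKM scale AGRN was −0.0098 with a pseudocount of 1, filtered or not, and −0.011 with 0.1. With GC and length offsets AGRN was −0.19, COL1A1 −0.032 and MATN3 0.057, and with the replicate block added AGRN was −0.19, COL1A1 −0.029, MATN3 0.050 and COL6A1 −0.00038. MATN3 ranged from −0.36 to 0.17 with 1 library left out.

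The count of members called was 9 higher and 14 lower. It was 4 and 8 on log2(FPKM + 1) and on log2(FPKM + 0.1) with a mean of at least 1 FPKM, where 19 members were tested. Among all 13403 genes tested there, 2526 rose and 2871 fell with a pseudocount of 1, and 2520 and 2857 with 0.1. Calls over all genes numbered 7393, and 3728 on unfiltered log2(FPKM + 1), where related genes on the lists had 15 rises and 12 falls, against 28 and 20. Leaving out 1 library gave 5844 to 8258 calls over all genes, 8 to 11 members higher and 13 to 14 lower. Deviations from the group mean had correlations of −0.08 to 0.07 between libraries with the same replicate number. ENZ replicates 1 and 3 correlated more with a Control library of another number. Whether same-numbered libraries were handled together was not tested. With the numbers as a replicate block 7466 genes (3832 higher and 3634 lower), 9 members higher and 14 lower were called. With offsets and the block 8 members were called higher and 18 lower, against 4888 and 3087 of all 18538 genes tested. Members under about 100 counts over all libraries are limited by depth.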

Other observations

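The exons of NID2, LOXL3 and COL18A1 overlapped a gene on the opposite strand, and the library kit does not mark strand. Of the exon bases of NID2, 30.7% are shared with RTRAF, of LOXL3 20.7% with HTRA2 and of COL18A1 18.5% with SLC19A1 (GENCODE 44). These neighbours held 16523, 8589 and 5934 counts over the 6 libraries, against 75, 1782 and 61 for the members. How the authors' counting split such reads was not tested.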
